A study of Saccharomyces cerevisiae with 12 samples.

Results

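The Ehrlich pathway is the route by which Saccharomyces cerevisiae takes the amino group from branched-chain and aromatic amino acids and releases the remaining carbon. The 10 genes described here are its transaminases ARO8, ARO9, BAT1 and BAT2, its decarboxylases ARO10, PDC5 and PDC6, its regulator ARO80, the organic acid pump PDR12 and the regulator of that pump, WAR1. They were chosen by gene symbol. All 10 were found among the 5449 genes measured, each by 1 probe set, and none of these probe sets has the suffix that Affymetrix gives to sets shared by several genes.

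In the pathway a transaminase turns an amino acid into its 2-oxo acid, a decarboxylase turns that acid into an aldehyde, and the aldehyde is reduced to a fusel alcohol or oxidised to a fusel acid. The alcohols and their esters are known aroma compounds of wine and beer, and yeast draws on the route when it must obtain nitrogen from amino acids. Fusel acids and food preservatives such as sorbate leave the cell through Pdr12, whose gene is activated by the transcription factor War1.

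The groups were EC1118 at 15 °C, EC1118 at 30 °C, CEN.PK113-7D at 15 °C and CEN.PK113-7D at 30 °C, each with 3 biological replicates and 1 Affymetrix Yeast Genome 2.0 array per replicate. EC1118 is an industrial wine strain and CEN.PK113-7D a laboratory strain, so each kind of yeast was represented by a single strain. All 12 cultures were anaerobic chemostats at steady state on minimal medium with anaerobic supplements, limited by nitrogen and diluted at 0.05 per h, so growth rate was held equal between temperatures. Arrays carry probes of fixed sequence, so in comparisons between strains a difference in transcript level and a difference in probe match cannot be told apart.

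Values are linear intensities of bulk RNA, in which fewer cells with a transcript and less transcript per cell cannot be told apart. The lowest value a probe set could take was 10, and per array 1.90% to 3.31% of them did. The median intensity of an array was 329 to 353 at 15 °C and 356 to 371 at 30 °C. The median log2 change of all genes at 15 °C against 30 °C was -0.04 in EC1118 and -0.11 in CEN.PK113-7D. In log2 intensity the lowest correlations with arrays of the same group, 0.975 and 0.980 across genes, which are not independent, involved replicate 3 of CEN.PK113-7D at 15 °C and replicate 2 of EC1118 at 30 °C. Both are called the arrays that stood apart below, by a small margin. Replicate 2 of EC1118 at 30 °C correlated with its group at 0.980 and 0.990, and replicate 3 of EC1118 at 15 °C at 0.983 and 0.987. All 9 measured markers of mating type a and of haploid cells were lower in EC1118 at both temperatures, where CEN.PK113-7D is known as a haploid of mating type a and EC1118 as a diploid. STE2, the receptor for alpha factor, read 67.5 to 92.9 on EC1118 arrays and 2810 to 4421 on CEN.PK113-7D arrays.

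The first question was which of these genes differed between 15 °C and 30 °C in each strain. PDR12 rose in the cold in both strains, by 4.64-fold in EC1118 and 11.1-fold in CEN.PK113-7D, while its regulator WAR1 fell in both. The decarboxylase gene ARO10 fell in both strains, by at least 3.42-fold in EC1118, where 1 cold value was at the floor of the table, and by 3.44-fold in CEN.PK113-7D (log2 change -1.78 ± 0.17 SE). The transaminase genes ARO8 and BAT1 rose in both strains, and PDC6 and ARO80 fell in both. Tests were made with limma across all genes, and a gene is called higher or lower where its Benjamini-Hochberg adjusted p was below 0.05.

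Of the 10 genes, 3 rose and 4 fell in EC1118, where 54.2% of all genes passed the threshold, 24.2% higher and 30.0% lower. In CEN.PK113-7D 3 rose and 5 fell, against 58.5% of all genes, 21.8% higher and 36.6% lower. The same 7 genes passed in the same direction in both strains, as did 38.8% of all genes, and 0 passed in opposite directions, against 1.76% of all genes. The values at 15 °C did not overlap those at 30 °C for 8 of the 10 genes in each strain, where the share of all genes was 62.7% in EC1118 and 62.8% in CEN.PK113-7D. Leaving out both arrays that stood apart was decided once the data had been seen, and then 4 rose and 5 fell in EC1118, and 3 rose and 6 fell in CEN.PK113-7D.

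**Figure D1:**
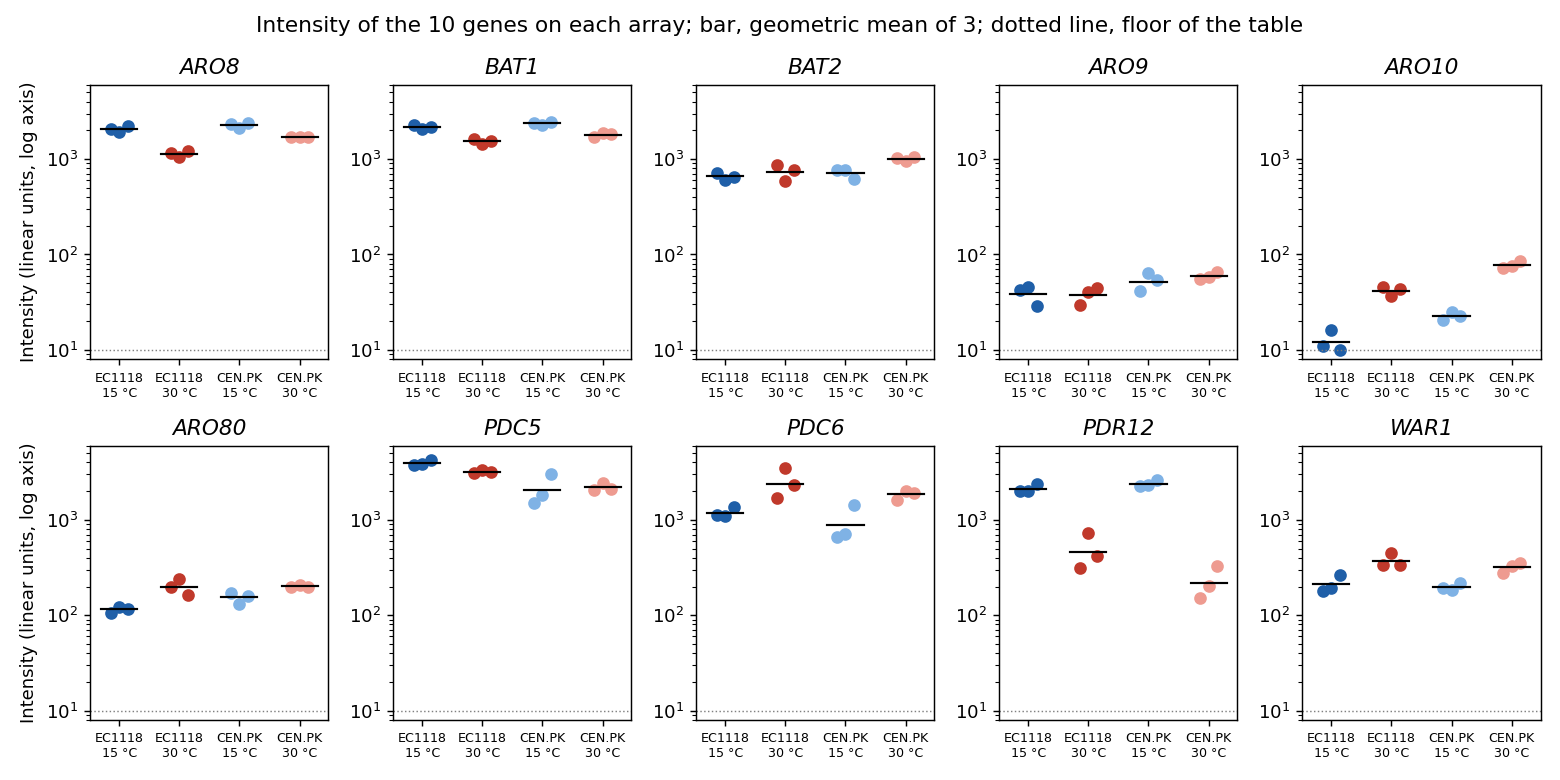
Linear intensity (log axis) of the 10 genes on each of the 12 arrays, with points for arrays, bars for the geometric mean of 3 arrays and a dotted line at the floor of 10. PDR12 sits at 2001 or above on all arrays at 15 °C and at 734 or below on all arrays at 30 °C, while ARO10 lies near the floor in EC1118 at 15 °C.

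The transaminases carry out the first step of the route. ARO8, which encodes the general aromatic transaminase of amino acid synthesis and breakdown, had intensities of 2075, 1941 and 2242 in EC1118 at 15 °C and 1171, 1047 and 1215 at 30 °C. In CEN.PK113-7D it had 2330.1, 2135 and 2378 at 15 °C and 1721, 1709 and 1713 at 30 °C. All cold values lay above all warm values in both strains. ARO8 was 1.82-fold higher at 15 °C in EC1118 (log2 change 0.87 ± 0.08 SE, adjusted p = 1.40e-05) and 1.33-fold higher in CEN.PK113-7D (0.41 ± 0.08, adjusted p = 0.00102).

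BAT1 and BAT2 encode the mitochondrial and the cytosolic branched-chain transaminase, and they did not move alike. BAT1 had 2263, 2063 and 2159 in EC1118 at 15 °C and 1623, 1456.5 and 1532 at 30 °C, a 1.41-fold increase in the cold (0.49 ± 0.06, adjusted p = 0.000150). In CEN.PK113-7D it had 2416, 2257 and 2429 at 15 °C and 1722, 1859 and 1856 at 30 °C, a 1.31-fold increase (0.39 ± 0.06, adjusted p = 0.000548). The cold and warm groups of BAT1 did not overlap in either strain.

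BAT2 had 722, 605 and 654 in EC1118 at 15 °C and 869, 596 and 769 at 30 °C. These groups overlapped, and the log2 change of -0.16 ± 0.14 (95% interval -0.47 to 0.14) missed the threshold (adjusted p = 0.348). Without replicate 2 at 30 °C, the array at 596, the change was -0.31 (adjusted p = 0.0531), and without both arrays that stood apart it passed at the same value (adjusted p = 0.0203). In CEN.PK113-7D BAT2 had 770.3, 767 and 617 at 15 °C and 1034, 960.3 and 1051 at 30 °C, with no overlap and a 1.42-fold decrease in the cold (-0.51 ± 0.14, adjusted p = 0.00955). That call was lost under quantile normalization of the arrays (adjusted p = 0.111). The test of the difference between the strains in the BAT2 response did not pass (0.34 ± 0.19, adjusted p = 0.284).

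The difference between BAT1 and BAT2 within an array is not altered by a factor applied to the whole array. Its absolute size also holds the unequal brightness of the probe sets, so only its shift between groups is read here. The log2 difference BAT1 minus BAT2 averaged 1.71 ± 0.06 in EC1118 at 15 °C and 1.06 ± 0.20 at 30 °C (SD, n = 3 each), a shift of 0.65. It averaged 1.73 ± 0.22 in CEN.PK113-7D at 15 °C and 0.84 ± 0.11 at 30 °C (SD, n = 3 each), a shift of 0.89. The cold arrays of a strain all lay above its warm arrays, and the cold means of both strains differed by less than the spread between replicates.

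**Figure D2:**
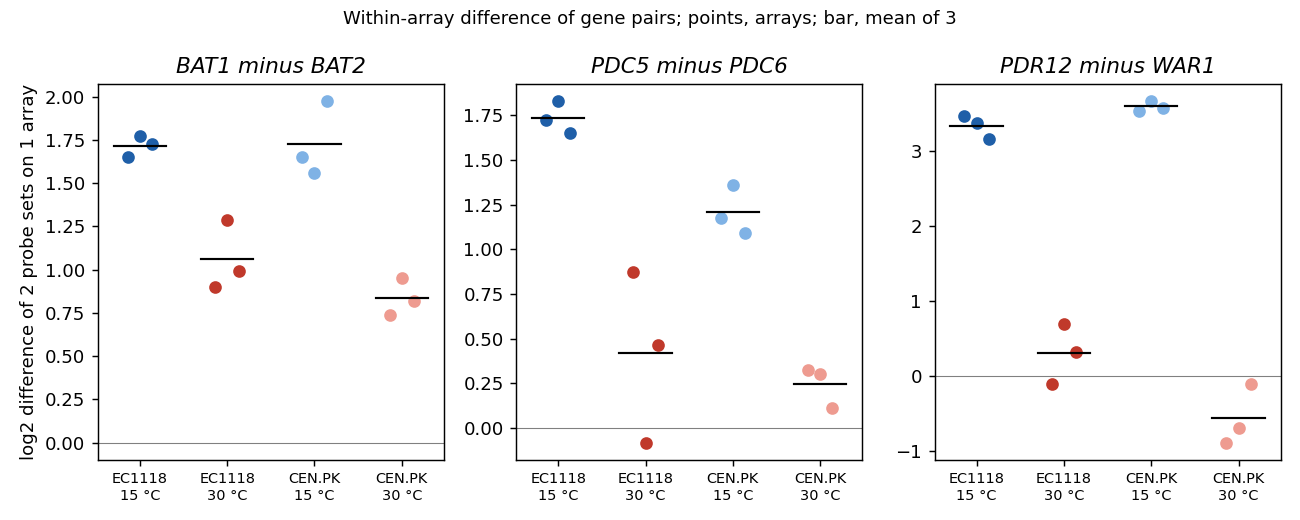
Log2 difference between the probe sets of 2 genes on the same array, for BAT1 minus BAT2, PDC5 minus PDC6 and PDR12 minus WAR1, with points for arrays and bars for the mean of 3. In each panel the arrays of a strain at 15 °C lie above those of the same strain at 30 °C.

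ARO9 encodes the inducible aromatic transaminase, and its signal was dim everywhere. It had 41.9, 45.7 and 28.7 in EC1118 at 15 °C and 29.8, 40.1 and 44.9 at 30 °C, and 41.4, 63.3 and 53.5 in CEN.PK113-7D at 15 °C and 55.5, 57.4 and 65.0 at 30 °C. Cold and warm values overlapped in both strains. The log2 change was 0.01 ± 0.21 in EC1118 (95% interval -0.46 to 0.48, adjusted p = 0.983) and -0.19 ± 0.21 in CEN.PK113-7D (95% interval -0.66 to 0.28, adjusted p = 0.471). These intervals leave room for changes of up to about 0.66 on the log2 scale.

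ARO10 encodes the decarboxylase that acts on the 2-oxo acids of phenylalanine and of the branched-chain amino acids. Its intensities were 10.9, 16.3 and 10.0 in EC1118 at 15 °C, the last of them at the floor, and 45.1, 36.6 and 42.9 at 30 °C. In CEN.PK113-7D they were 20.3, 25.2 and 22.4 at 15 °C and 72.3, 74.8 and 86.2 at 30 °C. None of the 4 groups overlapped another, in the rising order EC1118 at 15 °C, CEN.PK113-7D at 15 °C, EC1118 at 30 °C and CEN.PK113-7D at 30 °C. ARO10 was at least 3.42-fold lower at 15 °C in EC1118 (adjusted p = 2.25e-05) and 3.44-fold lower in CEN.PK113-7D (adjusted p = 1.72e-05). With 50 added to every value, which shrinks differences of dim probe sets, the log2 changes were -0.55 in EC1118 and -0.81 in CEN.PK113-7D, and both still passed.

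ARO80 encodes the zinc-cluster activator of ARO9 and ARO10, which responds to aromatic amino acids. It had 106, 123 and 117 in EC1118 at 15 °C and 199, 239 and 165 at 30 °C, a 1.73-fold decrease without overlap (-0.79 ± 0.13, adjusted p = 0.000721). In CEN.PK113-7D it had 173, 132 and 158 at 15 °C and 199, 206 and 198 at 30 °C, a 1.31-fold decrease without overlap (-0.39 ± 0.13, adjusted p = 0.0285). The call in CEN.PK113-7D was lost with each array centred on its median (adjusted p = 0.0895), without replicate 2 at 15 °C (adjusted p = 0.113) and without any 1 of the replicates at 30 °C (adjusted p = 0.0572 to 0.0735). ESBP6, a monocarboxylate permease homologue also under Aro80, fell by 0.34 ± 0.08 on the log2 scale in EC1118 and by 0.48 ± 0.08 in CEN.PK113-7D. In each strain ARO10, ARO80 and ESBP6 were therefore the 3 of 4 genes of the Aro80 list called lower, and ARO9 was the one that was not. Of all genes 30.0% were lower in EC1118 and 36.6% in CEN.PK113-7D. With centred arrays 2 of the 4 were lower in CEN.PK113-7D, where fewer of all genes were lower too. The list includes the regulator ARO80 itself.

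PDC5 and PDC6 encode pyruvate decarboxylases that can also act on 2-oxo acids of the pathway. They and PDC1, the main pyruvate decarboxylase, are close in sequence, and how far each probe set also reads the other genes was not tested. PDC6 had 1132, 1086 and 1350.4 in EC1118 at 15 °C and 1691, 3518 and 2316 at 30 °C. In CEN.PK113-7D it had 668, 709.7 and 1438 at 15 °C and 1635, 1993 and 1930.0 at 30 °C. The groups did not overlap in either strain, and the highest value of the warm EC1118 group and of the cold CEN.PK113-7D group came from the arrays that stood apart.

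PDC6 was 2.02-fold lower at 15 °C in EC1118 (-1.02 ± 0.31, adjusted p = 0.0172) and 2.10-fold lower in CEN.PK113-7D (-1.07 ± 0.31, adjusted p = 0.0126). In EC1118 omitting replicate 2 at 15 °C ended the call (adjusted p = 0.0534), and so did omitting replicate 2 at 30 °C (log2 change -0.74, adjusted p = 0.0690). In CEN.PK113-7D it was lost without replicate 2 at 15 °C (adjusted p = 0.0520), while without replicate 3 at 15 °C the change was -1.42.

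PDC5 had 3729, 3861 and 4234 in EC1118 at 15 °C and 3099, 3325 and 3190.0 at 30 °C, without overlap, and its change of 0.30 ± 0.21 missed the threshold (adjusted p = 0.247). In a fit of these groups alone, where the spread of the other strain did not enter, it passed (adjusted p = 0.0131). It had 1510.2, 1822 and 3057 in CEN.PK113-7D at 15 °C and 2046, 2460 and 2086 at 30 °C, an overlap that came from replicate 3. The change was -0.11 ± 0.21 (adjusted p = 0.680), and without that replicate it was -0.40 (adjusted p = 0.0102). PDC1 had a log2 change of 0.04 ± 0.05 in EC1118 (adjusted p = 0.556) and -0.03 ± 0.05 in CEN.PK113-7D (adjusted p = 0.661), at intensities of 5724 to 6379 in a table whose arrays peaked between 7573 and 8057.

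PDC5 and PDC6 deviated together on replicate 3 of CEN.PK113-7D at 15 °C, where both were at their highest of the group. Their within-array difference, PDC5 minus PDC6, was 1.18, 1.36 and 1.09 on the arrays of that group, so replicate 3 no longer stood apart. It averaged 1.73 ± 0.09 in EC1118 at 15 °C and 0.42 ± 0.48 at 30 °C, and 1.21 ± 0.14 in CEN.PK113-7D at 15 °C and 0.25 ± 0.12 at 30 °C (SD, n = 3 each). The shift in favour of PDC5 in the cold was 1.31 in EC1118 and 0.96 in CEN.PK113-7D.

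PDR12 encodes the ATP-driven plasma membrane pump for weak organic acids. Its intensities were 2001, 2029 and 2376 in EC1118 at 15 °C and 312, 734 and 421 at 30 °C. In CEN.PK113-7D they were 2252, 2325 and 2597 at 15 °C and 150.1, 204 and 325 at 30 °C. The cold groups of the strains overlapped each other, as did the warm groups, and every cold value was above every warm one. The log2 change was 2.21 ± 0.31 in EC1118 (adjusted p = 0.000239) and 3.47 ± 0.31 in CEN.PK113-7D (adjusted p = 1.28e-05). Among all genes this was the 11th highest change in EC1118 and the third highest in CEN.PK113-7D.

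WAR1, the activator of PDR12, had 181, 195 and 265 in EC1118 at 15 °C and 338, 454 and 338 at 30 °C, a 1.77-fold decrease (-0.82 ± 0.16, adjusted p = 0.00190). In CEN.PK113-7D it had 195, 183 and 218 at 15 °C and 279, 331 and 352 at 30 °C, a 1.61-fold decrease (-0.69 ± 0.16, adjusted p = 0.00467). No cold value reached a warm value in either strain. PDR12 and its activator thus went opposite ways. The within-array difference PDR12 minus WAR1 averaged 3.33 ± 0.16 in EC1118 at 15 °C and 0.30 ± 0.40 at 30 °C, and 3.59 ± 0.07 in CEN.PK113-7D at 15 °C and -0.57 ± 0.41 at 30 °C (SD, n = 3 each). These are shifts of 3.04 in EC1118 and 4.16 in CEN.PK113-7D. The activity of War1 is known to be set on the protein, which arrays do not measure.

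**Figure D3:**
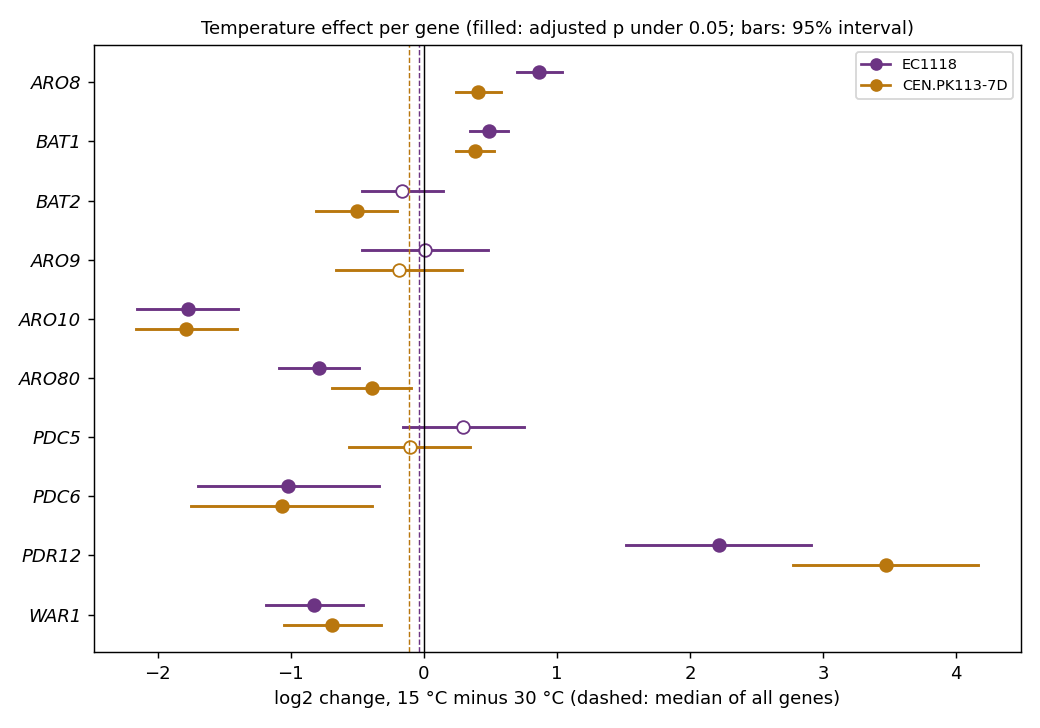
Log2 change at 15 °C minus 30 °C for each gene in EC1118 (upper point) and CEN.PK113-7D (lower point), with 95% intervals and filled points where the adjusted p was below 0.05. PDR12 stands alone on the right at 2.21 and 3.47, ARO10 lies on the left, at -1.78 in CEN.PK113-7D and at a point in EC1118 that is a bound on the decrease, since 1 cold value was at the floor, and the dashed lines mark the median of all genes.

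The interaction asked whether the temperature effect differed between the strains. ARO8 passed, with a difference of 0.46 ± 0.11 on the log2 scale (EC1118 minus CEN.PK113-7D, adjusted p = 0.0208), since its increase in the cold was larger in EC1118. It was the only 1 of the 10 genes to pass, or 1 of 2 without both arrays that stood apart, where 13.0% of all genes did (8.68% with a positive and 4.37% with a negative difference). That share stands for 711 genes, which became 468 without replicate 1 of EC1118 at 15 °C, and its split of 473 positive and 238 negative became 371 and 358 under quantile normalization. ARO8 passed in each of the 20 alternatives tried (adjusted p = 0.00956 to 0.0494). PDR12 had the largest difference of the 10, -1.26 ± 0.44 (95% interval -2.24 to -0.27), and missed the threshold (adjusted p = 0.0898). Omitting replicate 3 of the warm CEN.PK113-7D group made it pass (adjusted p = 0.0389), and so did omitting replicate 1 of the warm EC1118 group (adjusted p = 0.0423).

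For ARO10 the EC1118 change is a bound, so no size is read for the difference, which did not pass as deposited (adjusted p = 0.992) or with 50 added to every value (adjusted p = 0.0768). PDC5 differed by 0.40 ± 0.29 (adjusted p = 0.403), and by 0.70 without replicate 3 of CEN.PK113-7D at 15 °C, where it passed (adjusted p = 0.0128). The differences of BAT1, PDC6 and WAR1 were 0.11 ± 0.09, 0.05 ± 0.43 and -0.13 ± 0.23, and none passed. Those of ARO9 and ARO80 were 0.20 ± 0.30 and -0.40 ± 0.19 and did not pass either (adjusted p = 0.715 and 0.201).

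The strains were then compared at each temperature. At 15 °C PDC5 was 1.94-fold higher in EC1118 (log2 difference 0.95 ± 0.21, adjusted p = 0.00565), and ARO10 was at least 1.86-fold lower, with 1 EC1118 value at the floor (adjusted p = 0.00268). ARO80 was 1.33-fold lower in EC1118 (-0.42 ± 0.13, adjusted p = 0.0369). The ARO80 call was lost in 7 of 14 alternatives, among them the fit with the replicate number as a block (adjusted p = 0.0520). Same-numbered arrays deviated together in this comparison, but the block was shared by all 4 groups and is not a paired test. PDC5, ARO10 and ARO80 were 3 of 10 genes, against 33.1% of all genes, with 1 higher and 2 lower against 19.0% and 14.1%. They were also the 3 whose strains did not overlap, against 44.9% of all genes. The PDC6 difference of 0.43 ± 0.31 (adjusted p = 0.315) became 0.78 without replicate 3 of CEN.PK113-7D (adjusted p = 0.0408).

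At 15 °C the transaminase genes and PDR12 did not pass between the strains, although EC1118 was the lower of each of the 3 same-numbered pairs for ARO8, BAT1 and PDR12. With the replicate number as a block they did not pass either (adjusted p = 0.118 for ARO8, 0.144 for BAT1 and 0.669 for PDR12). PDR12 averaged 2135 ± 209 in EC1118 and 2391 ± 182 in CEN.PK113-7D (SD, n = 3 each), a log2 difference of -0.17 ± 0.31 (95% interval -0.86 to 0.53). That error is pooled over all 4 groups, so the wider spread of the warm PDR12 arrays enters it. The SD was 9.8% of the mean in EC1118 and 7.6% in CEN.PK113-7D at 15 °C, and 44.8% and 39.6% at 30 °C. Over 15 alternatives with limma the adjusted p of PDR12 ran from 0.262 to 0.856. ARO8 differed by -0.13 ± 0.08 (95% interval -0.30 to 0.04) and BAT1 by -0.13 ± 0.06 (95% interval -0.27 to 0.01). The intervals were -0.92 to 0.02 for ARO9, -0.42 to 0.19 for BAT2 and -0.27 to 0.46 for WAR1.

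At 30 °C 6 of the 10 genes differed between the strains, against 41.4% of all genes, and all 4 transaminase genes were lower in EC1118. Without both arrays that stood apart 4 of 10 differed at 30 °C and 4 of 10 at 15 °C, and whether the temperatures differ in this count was not tested. Of the 6, 1 was higher and 5 were lower in EC1118, against 21.0% and 20.4% of all genes. ARO8 averaged 1144 ± 86.8 in EC1118 and 1714 ± 6.30 in CEN.PK113-7D (SD, n = 3 each), 1.50-fold lower (-0.59 ± 0.08, adjusted p = 0.000179). ARO9 was 1.57-fold lower (-0.65 ± 0.21, adjusted p = 0.0320), BAT1 1.18-fold (-0.24 ± 0.06, adjusted p = 0.0135) and BAT2 1.38-fold (-0.46 ± 0.14, adjusted p = 0.0212). ARO10 was 1.87-fold lower in EC1118 (-0.91 ± 0.17, adjusted p = 0.00186), and with 50 added to every value its log2 difference was -0.22 at 15 °C and -0.48 at 30 °C.

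Among these calls at 30 °C those of ARO8 and ARO10 held in every alternative tried. The ARO9 call was lost in 7 of 14, with a log2 difference of -0.15 under quantile normalization, and those of BAT1 and BAT2 in 3 of 15 each. The strains did not overlap for these 5 genes and PDC5, which makes 6 of 10 genes against 54.9% of all genes. PDC5 was 0.55 ± 0.21 higher in EC1118 on the log2 scale and narrowly missed the threshold (adjusted p = 0.0546), and it passed in 6 of 15 alternatives. PDC6 at 0.38 ± 0.31, WAR1 at 0.23 ± 0.16 and ARO80 at -0.02 ± 0.13 did not pass, and the values of the strains overlapped for all 3.

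PDR12 at 30 °C averaged 489 ± 219 in EC1118 and 226 ± 89.6 in CEN.PK113-7D (SD, n = 3 each), 2.13-fold higher in EC1118 (1.09 ± 0.31, adjusted p = 0.0180). The lowest EC1118 value, 312, lay below the highest CEN.PK113-7D value, 325. The call was lost in 5 of 15 alternatives, among them a fit of these groups alone (adjusted p = 0.0760) and the omission of replicate 2 of EC1118 (log2 difference 0.75, adjusted p = 0.0576). Without both arrays that stood apart 1 of the 10 genes was higher and 3 were lower in EC1118 at 30 °C, and 2 were higher and 2 lower at 15 °C. No share of all genes is given for that fit.

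**Figure D4:**
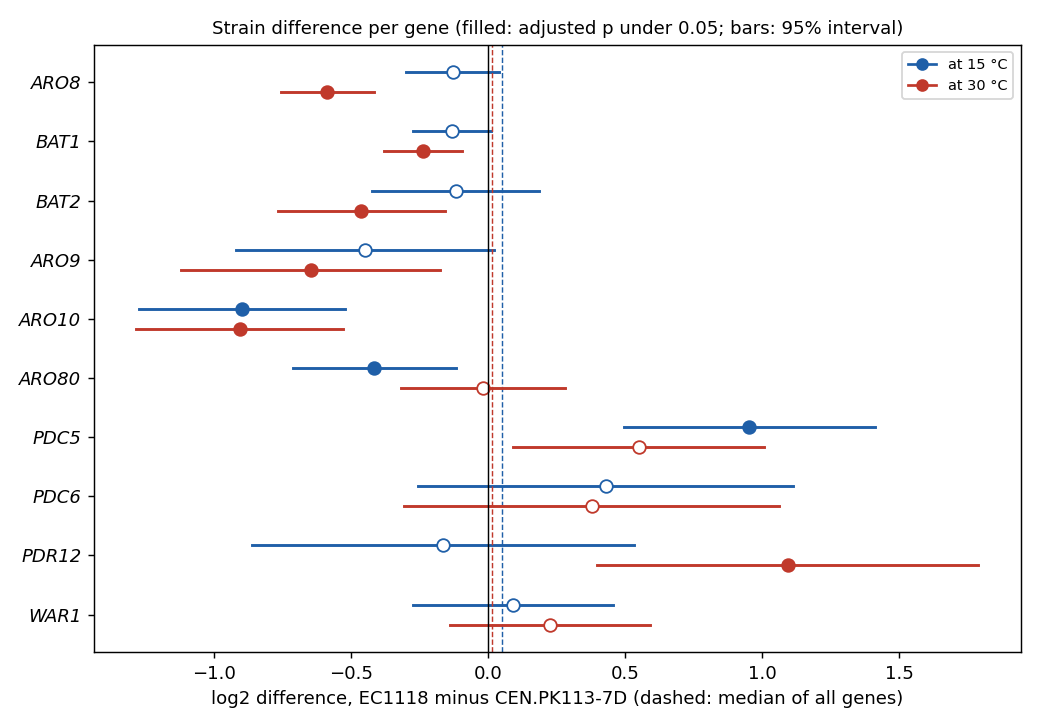
Log2 difference EC1118 minus CEN.PK113-7D for each gene at 15 °C (upper point) and 30 °C (lower point), with 95% intervals, filled points where the adjusted p was below 0.05 and dashed lines at the median of all genes. ARO10 lies at -0.91 at 30 °C, its point at 15 °C is a bound since 1 EC1118 value was at the floor, and PDR12 lies at -0.17 at 15 °C and 1.09 at 30 °C.

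Genes that supply the substrates of the pathway were examined next. The shares of all genes beside which the list counts stand were 24.2% higher and 30.0% lower in EC1118, and 21.8% higher and 36.6% lower in CEN.PK113-7D. Of 11 measured genes of aromatic amino acid synthesis, 7 rose and 0 fell in EC1118 at 15 °C (median log2 change 0.47), and 6 rose and 0 fell in CEN.PK113-7D (median 0.28), where centred arrays gave 8 higher. At an unadjusted p below 0.05 with limma these counts were the same. ARO4, whose enzyme carries out the first step of that synthesis and is inhibited by tyrosine, rose by 0.79 ± 0.07 in EC1118 and 0.97 ± 0.07 in CEN.PK113-7D. Of 10 genes of branched-chain synthesis, 7 rose and 1 fell in EC1118 (median 0.25) and 5 rose and 1 fell in CEN.PK113-7D (median 0.13). With centred arrays 0 fell in CEN.PK113-7D. Over all genes the medians were -0.04 in EC1118 and -0.11 in CEN.PK113-7D. LEU9, an isopropylmalate synthase, rose by 1.24 ± 0.12 in EC1118 and 1.87 ± 0.12 in CEN.PK113-7D, while ILV2, the first enzyme of the branched-chain route, fell by 0.48 ± 0.06 in EC1118.

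Uptake genes for these amino acids were split. Of 11 genes, 3 rose and 6 fell in EC1118 (median log2 change -0.33) and 2 rose and 7 fell in CEN.PK113-7D (median -0.39). AGP1, a broad amino acid permease, fell by 2.33 ± 0.12 in EC1118 and 2.05 ± 0.12 in CEN.PK113-7D, and PTR3 of the amino acid sensor fell by 1.33 ± 0.07 in EC1118 and 1.18 ± 0.07 in CEN.PK113-7D. TAT2, the tryptophan and tyrosine permease, rose by 1.58 ± 0.13 in EC1118. In CEN.PK113-7D TAT2 was higher in the cold too, at 317 ± 41.1 at 15 °C and 150 ± 28.0 at 30 °C (SD, n = 3 each), without overlap. Of 8 regulators of nitrogen and amino acid genes, 7 fell and 0 rose in each strain (median -0.47 in EC1118 and -0.52 in CEN.PK113-7D), also with centred and quantile-normalized arrays, and without both arrays that stood apart 6 fell in EC1118. The nitrogen activator GAT1 fell by 0.72 ± 0.09 in EC1118 and 1.09 ± 0.09 in CEN.PK113-7D.

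Of 14 alcohol and aldehyde dehydrogenases, 4 rose and 3 fell in EC1118 (median 0.07), where centred arrays gave 6 higher and 2 lower and quantile-normalized arrays 6 and 3. In CEN.PK113-7D 3 of them rose and 4 fell (median 0.04), where centred arrays gave 5 higher and 3 lower and quantile-normalized arrays 6 and 3. Both scalings also gave more higher and fewer lower calls over all genes of this strain. ADH5, an alcohol dehydrogenase, rose by 1.59 ± 0.14 in EC1118 and 1.17 ± 0.14 in CEN.PK113-7D. ALD2, an aldehyde dehydrogenase, fell by 0.89 ± 0.11 in EC1118 and 2.13 ± 0.11 in CEN.PK113-7D, and its temperature effects differed by 1.24 ± 0.15 (adjusted p = 0.00115). ADH7, an NADPH-dependent alcohol dehydrogenase, read 3501, 1609 and 2971 in EC1118 at 30 °C and was at the floor on all 3 arrays of CEN.PK113-7D, at least 256-fold higher in EC1118. The alcohol acetyltransferase gene ATF1 rose by 0.37 ± 0.09 in EC1118 in the cold, the 1 of 5 ester genes that did so, and IAH1, an esterase gene, fell as deposited (adjusted p = 0.0491) but did not pass with centred or quantile-normalized arrays. In CEN.PK113-7D 0 of the 5 passed with limma, also at an unadjusted p below 0.05.

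Of 11 measured thiamine genes, looked at because PDC5 is known to be repressed by thiamine, 2 rose and 1 fell in EC1118 (median 0.07), and 5 rose and 2 fell in CEN.PK113-7D (median 0.09). THI3, a regulator of these genes that resembles a decarboxylase, rose by 0.56 ± 0.09 in CEN.PK113-7D, and PDC2, an activator of PDC1 and PDC5, fell by 0.42 ± 0.07 in EC1118 and 0.34 ± 0.07 in CEN.PK113-7D.

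PDR12 was set against other pumps and other genes of the weak acid response. Of 15 ABC drug pumps and their regulators, 2 rose and 7 fell in EC1118 (median -0.30) and 0 rose and 10 fell in CEN.PK113-7D (median -0.57), against 24.2% higher and 30.0% lower of all genes in EC1118 and 21.8% and 36.6% in CEN.PK113-7D. In CEN.PK113-7D centred and quantile-normalized arrays each gave 1 higher, where more of all genes were higher too. At an unadjusted p below 0.05 with limma 0 rose in CEN.PK113-7D as well. PDR5, the main multidrug pump, fell by 1.59 ± 0.16 in CEN.PK113-7D, and SNQ2 fell by 0.81 ± 0.10 in EC1118 and 0.66 ± 0.10 in CEN.PK113-7D. PDR18, another ABC pump, had the largest rise of the list in EC1118, 1.07 on the log2 scale. It averaged 53.7 ± 4.40 at 15 °C and 26.0 ± 5.61 at 30 °C there (SD, n = 3 each). In CEN.PK113-7D it was at the floor of 10 on all arrays, so no change of it could be measured in that strain. Of 12 weak acid response genes outside the War1 branch, 1 rose and 7 fell in EC1118 (median -0.37) and 1 rose and 5 fell in CEN.PK113-7D (median -0.36). With centred arrays 3 fell in CEN.PK113-7D, where fewer of all genes were lower too. HAA1, the activator of the acetic acid response, fell by 1.001 ± 0.08 in EC1118 and 0.76 ± 0.08 in CEN.PK113-7D, and SPI1, a cell wall protein gene known to respond to weak acids, fell by 1.59 ± 0.23 in EC1118 and 3.19 ± 0.23 in CEN.PK113-7D. AZR1, a transporter of the same list, was the gene that rose. It had 187, 302 and 707 in EC1118 at 15 °C and 23.1, 29.1 and 95.4 in CEN.PK113-7D at 15 °C, and each of the 6 warm arrays held it at the floor.

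Between the strains, the other genes of the route were mixed. ESBP6 was higher in EC1118 at 15 °C (log2 difference 0.51 ± 0.08, adjusted p = 0.000956) and at 30 °C (0.37 ± 0.08, adjusted p = 0.00453), while ARO10 of the same regulator was lower at both. Of 10 genes of branched-chain synthesis, 1 was higher and 5 were lower in EC1118 at 15 °C, against 19.0% and 14.1% of all genes. At 30 °C 0 were higher, also at an unadjusted p below 0.05 with limma, and 5 were lower, against 21.0% and 20.4% of all genes. LEU2, an enzyme of leucine synthesis, was 0.60 ± 0.07 lower at 15 °C and 0.90 ± 0.07 lower at 30 °C in EC1118 on the log2 scale. BAP2, a permease for branched-chain amino acids, read 10.5-fold lower in EC1118 at 15 °C and 2.97-fold lower at 30 °C.

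Of the 5 ester genes, 1 was lower in EC1118 at 15 °C and 3 at 30 °C, against 14.1% and 20.4% of all genes. ATF2, an alcohol acetyltransferase gene, was in both counts (-0.86 ± 0.24 at 15 °C and -0.73 ± 0.24 at 30 °C). SFA1, whose enzyme can reduce fusel aldehydes, was 2.26-fold higher in EC1118 at 15 °C and 2.92-fold higher at 30 °C, and ALD6, the main cytosolic acetaldehyde dehydrogenase, was 2.03-fold lower at 15 °C and 2.31-fold lower at 30 °C. PDR5 was 2.35-fold higher in EC1118 at 15 °C, and its temperature effects differed by 1.36 ± 0.22 (adjusted p = 0.00416).

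**Figure D5:**
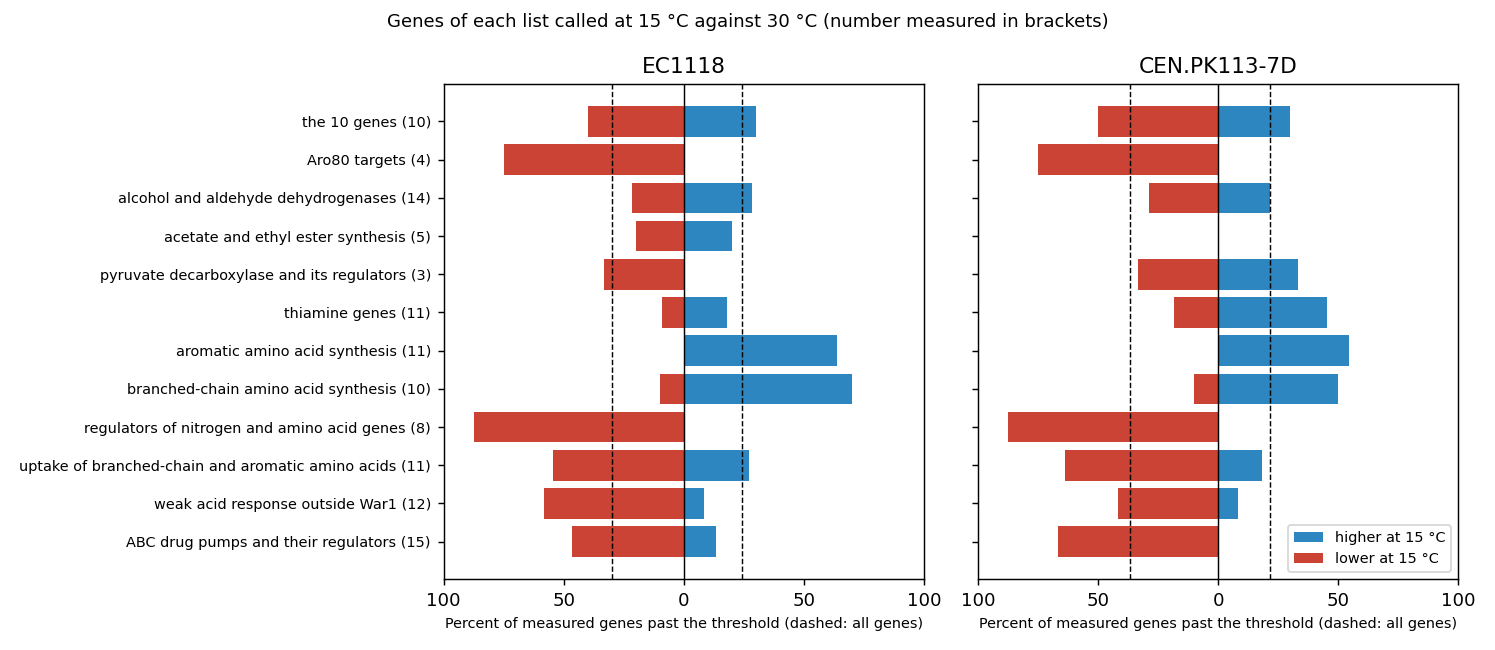
Percent of the measured genes of each list that were higher (right) or lower (left) at 15 °C in EC1118 and CEN.PK113-7D at an adjusted p below 0.05, with dashed lines at the percent of all genes. Aromatic amino acid synthesis has 7 and 6 of 11 genes higher and 0 lower, and the regulators have 7 of 8 genes lower in both strains. The Aro80 list shares 3 genes with the 10 described.

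Among the 10 genes, profiles over the 12 arrays were compared by the root mean square difference of log2 intensity after each profile was centred on its own mean. This measure is not scaled, so genes that move little lie close to each other. ARO8 and BAT1 were the closest pair, at 0.17, where they deviated from their own means by 0.39 and 0.25. ARO80 and WAR1 followed at 0.27, with own deviations of 0.36 and 0.43. The farthest apart were ARO10 and PDR12, at 2.47, with own deviations of 1.01 and 1.52. Over all genes, the profiles closest to PDR12 were those of IMD2 at 0.62, YJL047C-A at 0.64 and NSR1 at 0.65, where PDR12 itself deviated from its mean by 1.52. IMD2 averaged 1751 ± 172 in EC1118 at 15 °C and 850.2 ± 73.1 at 30 °C, and 2035 ± 101 in CEN.PK113-7D at 15 °C and 403 ± 109 at 30 °C (SD, n = 3 each). IMD2 has near-identical copies, so its own level is uncertain.

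The profiles closest to ARO10 were those of NRG2 at 0.27, KTR2 at 0.28 and IRC4 at 0.29, where ARO10 deviated from its own mean by 1.01. Those closest to PDC6 were YOR186W at 0.18, AAC1 at 0.20 and SOD2 at 0.22, where PDC6 deviated by 0.66. NRG2 averaged 443 ± 94.0 in EC1118 at 15 °C and 1472 ± 235 at 30 °C, and 729.9 ± 14.1 in CEN.PK113-7D at 15 °C and 2063 ± 3.14 at 30 °C (SD, n = 3 each), which put its groups in the same order as those of ARO10.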

How the data were processed

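RNA of 12 chemostat cultures was hybridised to 1 Affymetrix Yeast Genome 2.0 array each. The deposited values are linear intensities per probe set, and how the authors summarised and normalized them is not given in the sources used here. Of 5900 probe sets, 5498 had 1 gene in the platform annotation and 402 were not named, and 12 symbols were updated through RefSeq. For the 47 genes with several probe sets the set with the highest mean intensity over all arrays was kept, which gave 5449 genes.

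The package limma 3.58.1 (R 4.3.3) was used on log2 values, with 1 coefficient per group over all 12 arrays (8 residual degrees of freedom), and p-values were adjusted by Benjamini-Hochberg over all genes at a threshold of 0.05. SE is limma's moderated error, and intervals are at 95%. The fit was tested on simulated data. The 5 comparisons were temperature in each strain, strain at each temperature and their interaction. The 10 genes and the gene lists were chosen with earlier results of these data known. All 10 genes are named in every comparison, list genes are taken from the 3 with the smallest adjusted p per list and comparison, and profile neighbours are the closest 3 of each gene whose group means span more than 1 on the log2 scale. STE2, PDR18 and, in CEN.PK113-7D, AZR1 and TAT2 were singled out after their values were seen.

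Replicate numbers were checked for pairing by the correlation of same-numbered arrays' deviations from their group means. For the strains at 15 °C all 3 exceeded 0.1 (0.48, 0.32 and 0.39), so there same-numbered arrays deviated alike. The labels state no pairing, and genes are not independent in these correlations. Replicate 1 gave 0.37 between temperatures in each strain, and 0.34 between the strains at 30 °C. Alternatives were a replicate block, quantile normalization, median centring, a fit of the compared groups only, a filter on dim genes, a pseudocount of 50, trended and robust variances, all probe sets and the omission of each array. No sequences of these genes were used here.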

Additional observations from a re-analysis of the deposited data

Results flagged for a closer look

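The temperature effect on ARO8 differed between the strains by 0.46 on the log2 scale in limma's interaction test. ARO8 averaged 2086 ± 151 in EC1118 at 15 °C and 1144 ± 86.8 at 30 °C, and 2281 ± 129 in CEN.PK113-7D at 15 °C and 1714 ± 6.30 at 30 °C (SD, n = 3 each). The cold values of the strains overlapped, and the warm values did not.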

How the results depend on the processing

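Of 785 values of the 10 genes under alternatives, 709 kept their direction and their side of the threshold. The 25 calls had 372 alternative values, of which 34 lost the call and 0 turned sign, and 16 calls were never lost. The 25 results that were not called had 413, of which 17 gained a call and 25 turned sign, and 0 of those that turned passed the threshold. The cause of these changes was not tested. Under quantile normalization the log2 value was -0.0397 for ARO9 in EC1118 and 0.0579 for PDC5 in CEN.PK113-7D between temperatures, and -0.0166 for ARO9, -0.0636 for ARO10 and -0.11 for PDC6 in the interaction. Median centring gave 0.0084 for PDC5 in CEN.PK113-7D and -0.0286 for ARO10 in the interaction. Without both arrays that stood apart the interaction was -0.0856 for ARO10 and 0.0775 for WAR1. Leaving out 1 array turned ARO9 in EC1118 (range -0.16 to 0.21), PDC5 in CEN.PK113-7D (-0.40 to 0.11), WAR1 between strains at 15 °C (-0.0736 to 0.20), ARO80 between strains at 30 °C (-0.15 to 0.12), and ARO10 (-0.21 to 0.14), PDC6 (-0.20 to 0.41) and WAR1 (-0.30 to 0.0089) in the interaction. The ARO10 interaction gave 7 of the 25 turned signs, and with 1 cold EC1118 value at the floor neither its size nor its sign is read. The number of genes called in the interaction was 711 and ran between 468 and 801 when 1 array was left out, lowest without EC1118 replicate 1 at 15 °C. With the replicate number as a block the counts were 3097 in EC1118, 3301 in CEN.PK113-7D, 1910 and 2401 between strains at 15 °C and 30 °C and 784 in the interaction, against 2953, 3186, 1805, 2256 and 711 without it. Beside the ARO80 call given in the report, the block moved PDC5 between strains at 30 °C past the threshold (adjusted p = 0.0441). Scaling moved the split of calls: in CEN.PK113-7D 1189 genes were higher and 1997 lower at 15 °C as deposited, 1577 and 1576 with median centring, and 1654 and 1525 with quantile normalization. In the interaction 473 were higher and 238 lower as deposited, and 371 and 358 with quantile normalization. ARO9, ARO10 and ARO80 did not pass the filter on dim genes and have no value there. With 3 arrays a group, and signal near the floor for ARO9 and ARO10, small changes of these genes could not be measured.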
